A study of Mus musculus with 6 samples.

Results

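Of 13633 merged open regions in pancreatic islets, 365 were called in exactly 2 of 6 libraries and had a midpoint over 1000 bp from the start and the end of every protein-coding gene. Peaks of the 6 deposited lists were merged where they overlapped by at least 1 bp, and the regions with a peak in exactly 2 lists were kept if they lay that far out. In all, 1694 regions were called in exactly 2 libraries, of which 1329 lay at gene ends and 365 were distal in this sense. Among all 8892 distal regions, 8174 were called in 1 library and 353 in 3 or more. Members were chosen by the peak calls themselves, so their numbers of libraries and their pairs are a description.

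ATAC-seq, an assay in which the transposase Tn5 cuts accessible DNA and leaves sequencing adapters there, was used to map open chromatin in islets of mice aged 16 weeks. Control mice (control-GFP, labelled wild type) and mice without Rictor in beta cells (knockout-GFP) gave islets that received an adenovirus carrying GFP, and the third group (knockout-Acsl4) was islets of the same knockout genotype with an adenovirus carrying Acsl4. All 3 groups were exposed to virus for 48 h outside the body, and about 50 islets were lysed per library, amplified with 12 PCR cycles and read as pairs of 50 bp. There were 2 libraries per group. The labels give neither the Cre driver behind the Rictor deletion nor whether replicate libraries stem from separate mice, so differences between them may be technical. Rictor defines the kinase complex mTORC2, which phosphorylates AKT, and Acsl4 activates long-chain polyunsaturated fatty acids. The labels name whole islets, a mixture of beta, other endocrine and supporting cells. In such bulk samples, fewer cells with an open site and less opening per cell cannot be told apart.

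Open chromatin away from the outer end of a gene has several known sources. Enhancers are bound by cell-type factors and act on genes over long distances, and internal promoters start shorter transcripts within a gene. CpG-rich promoters are commonly bound by SP and KLF proteins at GC boxes and by the trimer NFY at CCAAT boxes, and they tend to be open in many cell types, whereas enhancers differ more between cell types.

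Of the members, 36.9% of those assessed lay on a listed transcription start. The RefSeq table of starts used here covers all but 1 of the chromosomes, and each start has a window from 250 bp before to 50 bp after it. Of 352 members that could be assessed, 130 (36.9%, 95% interval 31.9 to 42.2) touched such a window. The 117 on coding starts all lay inside a protein-coding gene, and the 13 on starts of long noncoding RNA (lncRNA) genes all lay outside coding genes, at the outermost listed start of the lncRNA. The word distal therefore describes distance from the outer ends of genes and not absence of a promoter. The sequences at 9 of the coding starts are shown because they display what a member at a start inside a gene looks like. Each start lay inside its member, and from 108 to 250 bases of each sequence did. Each is the 250 bases before a listed start, 5′ to 3′ on the strand of the gene, from RefSeq on GRCm38.p6, with motif matches in capitals. The capitals mark GGGCGG (GC box), CCAAT (bound by NFY), TGACGTCA (CREB), CACGTG (E-box), GCGCATGC (NRF1), AAGATGGC (YY1), CCGGAA (ETS), GTAAACA (forkhead), TGANTCA (AP-1) and the CArG box of the serum response factor, each searched on both strands.

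The opening set holds 3 genes of the circadian clock. Arntl encodes BMAL1, the partner of CLOCK, Tef encodes a transcription factor under clock control, and Cipc encodes an inhibitor of CLOCK. The windows are chr7:113207215-113207464 on the plus strand for Arntl, chr15:81811164-81811413 on the plus strand for Tef and chr12:86947093-86947342 on the plus strand for Cipc.
Arntl: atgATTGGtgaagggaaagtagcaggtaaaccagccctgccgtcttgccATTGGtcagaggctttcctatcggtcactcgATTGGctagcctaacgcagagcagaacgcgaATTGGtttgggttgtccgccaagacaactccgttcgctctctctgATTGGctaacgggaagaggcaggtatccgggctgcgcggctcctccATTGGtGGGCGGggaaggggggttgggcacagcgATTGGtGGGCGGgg
Tef: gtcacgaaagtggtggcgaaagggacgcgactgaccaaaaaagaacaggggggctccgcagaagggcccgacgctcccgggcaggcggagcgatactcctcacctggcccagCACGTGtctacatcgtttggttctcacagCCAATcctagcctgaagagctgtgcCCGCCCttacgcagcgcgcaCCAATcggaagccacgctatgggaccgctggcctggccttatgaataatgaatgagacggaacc
Cipc: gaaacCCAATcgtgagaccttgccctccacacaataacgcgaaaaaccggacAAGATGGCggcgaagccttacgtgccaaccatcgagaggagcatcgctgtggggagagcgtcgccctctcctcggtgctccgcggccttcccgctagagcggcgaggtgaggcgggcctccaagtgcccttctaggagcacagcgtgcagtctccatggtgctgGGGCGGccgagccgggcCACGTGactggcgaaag
The Arntl sequence held 7 CCAAT boxes and 2 GC boxes. The Tef sequence held 2 CCAAT boxes, 1 GC box and 1 E-box, the motif bound by BMAL1 and CLOCK, and the Cipc sequence also held 1 E-box, beside 1 YY1 match.

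A further set shows genes of growth signalling and metabolism. Srf encodes the serum response factor, Errfi1 encodes a feedback inhibitor of the EGF receptor, Pfkfb2 encodes an enzyme that sets the level of the glycolytic activator fructose 2,6-bisphosphate, and Pdpk1 encodes the kinase that phosphorylates AKT at the site not used by mTORC2. The windows are chr17:46556163-46556412 on the minus strand for Srf, chr4:150854820-150855069 on the plus strand for Errfi1, chr1:130715822-130716071 on the minus strand for Pfkfb2 and chr17:24141595-24141844 on the minus strand for Pdpk1.
Srf: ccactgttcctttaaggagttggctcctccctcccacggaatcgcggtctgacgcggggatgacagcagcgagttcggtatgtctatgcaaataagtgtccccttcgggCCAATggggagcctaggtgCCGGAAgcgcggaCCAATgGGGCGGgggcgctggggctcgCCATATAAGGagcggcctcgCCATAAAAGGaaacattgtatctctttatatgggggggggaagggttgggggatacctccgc
Errfi1: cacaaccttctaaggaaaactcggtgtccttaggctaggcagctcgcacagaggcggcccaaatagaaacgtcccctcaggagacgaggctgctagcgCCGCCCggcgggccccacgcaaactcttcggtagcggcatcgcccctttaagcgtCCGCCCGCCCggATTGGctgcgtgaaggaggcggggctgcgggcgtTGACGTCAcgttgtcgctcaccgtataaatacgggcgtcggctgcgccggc
Pfkfb2: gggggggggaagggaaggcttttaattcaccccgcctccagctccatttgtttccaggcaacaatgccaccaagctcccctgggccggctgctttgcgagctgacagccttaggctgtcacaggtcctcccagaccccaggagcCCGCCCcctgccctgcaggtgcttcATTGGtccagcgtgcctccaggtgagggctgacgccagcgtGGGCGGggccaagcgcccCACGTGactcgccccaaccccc
Pdpk1: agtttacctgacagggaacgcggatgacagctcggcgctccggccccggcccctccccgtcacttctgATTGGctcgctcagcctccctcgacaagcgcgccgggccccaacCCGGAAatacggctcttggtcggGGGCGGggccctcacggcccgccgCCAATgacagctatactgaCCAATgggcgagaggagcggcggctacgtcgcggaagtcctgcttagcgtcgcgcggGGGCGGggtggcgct
The Srf sequence held 2 CArG boxes, which its own protein binds, with 2 CCAAT boxes, 1 GC box and 1 ETS match. Errfi1 had 1 CREB match and 3 GC boxes, Pfkfb2 had 1 E-box and 2 GC boxes, and Pdpk1 had 3 CCAAT boxes, 2 GC boxes and 1 ETS match.

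The last set shows 2 starts inside members called in both libraries of 1 group. The member at Wdr20, a partner of deubiquitinating enzymes, was called in both knockout-GFP libraries. That at Mllt10, a cofactor of the histone methyltransferase DOT1L, was called in both control-GFP libraries. At Mllt10 only the control-GFP 1 peak (chr2:18064314-18064712) held the start and the sequence shown. The control-GFP 2 peak (chr2:18064600-18064768) began downstream of both. The windows are chr12:110737750-110737999 on the plus strand for Wdr20 and chr2:18064335-18064584 on the plus strand for Mllt10.
Wdr20: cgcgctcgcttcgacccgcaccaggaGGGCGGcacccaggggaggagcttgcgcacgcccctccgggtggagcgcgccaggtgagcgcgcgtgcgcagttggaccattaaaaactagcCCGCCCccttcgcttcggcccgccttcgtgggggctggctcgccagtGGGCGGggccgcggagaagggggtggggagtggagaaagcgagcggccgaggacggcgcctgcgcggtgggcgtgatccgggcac
Mllt10: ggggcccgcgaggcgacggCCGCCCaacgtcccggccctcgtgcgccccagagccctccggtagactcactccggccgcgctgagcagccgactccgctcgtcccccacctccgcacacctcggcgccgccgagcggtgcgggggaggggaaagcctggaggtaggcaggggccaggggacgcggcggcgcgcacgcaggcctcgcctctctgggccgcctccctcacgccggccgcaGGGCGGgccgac
Wdr20 and Mllt10 were rich in CpG, with 33 and 36 CpG dinucleotides in 250 bases and 3 and 2 GC boxes. These 9 genes were chosen for display after their values were seen.

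The 6 lists differed widely in length, from 525 peaks in knockout-Acsl4 1 to 5874 in knockout-Acsl4 2. The sources used here do not give read depth. In knockout-Acsl4 2, 98.1% of 5587 distal regions were called in no other library, and in control-GFP 2 the share was 85.9% of 1271. In the other 4 libraries it lay between 41.7% and 53.6%. Of the peaks of knockout-Acsl4 2, 1.85% lay on a listed start, against 0.861% after a shift of 100 kb. In control-GFP 1 the same shares were 61.5% and 1.37%. At Acsl4 itself, 6 members lay inside the gene. All were called in control-GFP 1 and knockout-GFP 1 and in neither library labelled as having received the Acsl4 virus. Whether their peaks stem from islet chromatin or from DNA of the Acsl4 virus was not tested. Whether the labels of the libraries are correct was not tested, so every name of a library or group below is its label, and a difference between groups is one between libraries labelled so. Their pair's count and share on listed starts, the number of members with a high rank and the gene list count are also given without these 6. All other counts and shares include them.

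Members came mainly from a single pair of libraries that belong to different groups. Control-GFP 1 and knockout-GFP 2 shared 205 of the 365 members (56.2%). Both knockout-GFP libraries shared 43 (11.8%), and control-GFP 1 and knockout-GFP 1 shared 41 (11.2%), or 35 of 359 (9.75%) without the 6 at Acsl4. The remaining 76 members were spread over the other 12 pairs, led by control-GFP 2 with knockout-Acsl4 2 (15 members) and knockout-GFP 2 with knockout-Acsl4 1 (13 members). Among the 1329 regions at gene ends called in exactly 2 libraries, control-GFP 1 with knockout-GFP 2 likewise led, with 973 regions (73.2%). The pairs that shared 15 and 13 members shared only 1 and 3 regions at gene ends.

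**Figure D1:**
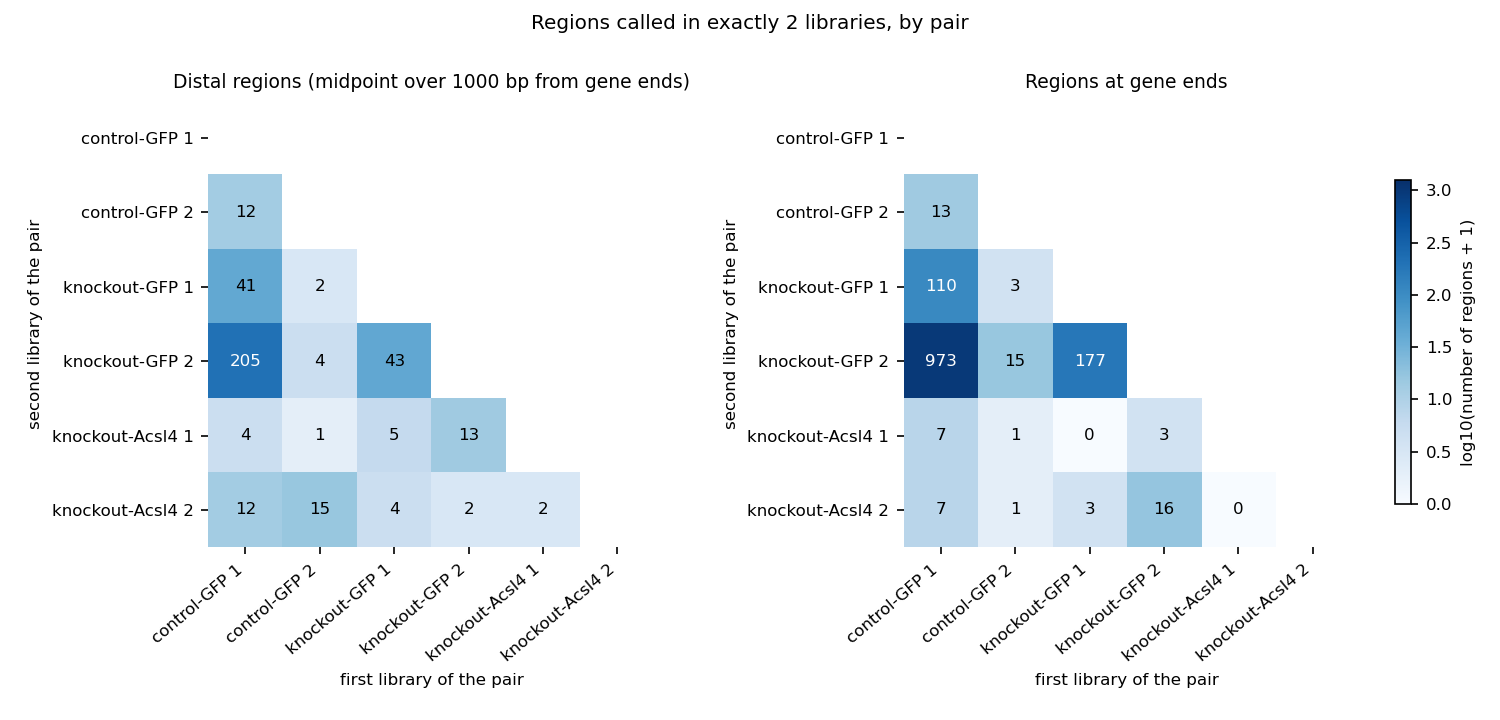
Number of regions called in exactly 2 libraries for each of the 15 pairs, with distal regions on the left and regions at gene ends on the right; both axes name the libraries of a pair, and colour is log10 of the number plus 1. Control-GFP 1 with knockout-GFP 2 holds 205 distal regions and 973 regions at gene ends.

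By library, members numbered 274 in control-GFP 1, 34 in control-GFP 2, 95 in knockout-GFP 1, 267 in knockout-GFP 2, 25 in knockout-Acsl4 1 and 35 in knockout-Acsl4 2. The libraries of the 2 GFP groups therefore overlapped in number, and both knockout-Acsl4 libraries lay low, beside control-GFP 2. The group mean was 181 ± 122 (SD, n = 2) for knockout-GFP and 154 ± 170 (SD, n = 2) for control-GFP, a difference of 27 with a two-sided exact permutation p of 1. For knockout-Acsl4 it was 30 ± 7.07 (SD, n = 2), which was 151 members fewer than in knockout-GFP (exact permutation p = 0.333, the smallest that 2 against 2 allows). Against control-GFP it was 124 fewer (exact permutation p = 0.667). Without control-GFP 2 the difference between knockout-GFP and control-GFP turned to -86, and without control-GFP 1 that between knockout-Acsl4 and control-GFP turned to 4. No difference between groups passed a threshold of 0.05, which this design cannot reach for any of the 3 comparisons.

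Members called in both libraries of the same group numbered 57 (15.6%, 95% interval 12.0 to 19.8), beside 190 of the 1329 regions at gene ends (14.3%, 12.5 to 16.3). Both control-GFP libraries shared 12 members. Over all merged regions, 0.183% had a peak in this pair and none in knockout-GFP, and 1.91% had a peak in this pair and none in knockout-Acsl4. Both knockout-GFP libraries shared 43 members, beside 1.72% of all regions called in both and neither control-GFP library, and 9.03% called in both and neither knockout-Acsl4 library. Both knockout-Acsl4 libraries shared 2 members, beside 0.022% of all regions with no control-GFP call and 0.0147% with no knockout-GFP call. The rule itself fixed these patterns for the members, so no difference between groups was read from them. The number of same-group members, taken as regions called in exactly 2 of 5 libraries, became 189 without control-GFP 1, 16 without knockout-GFP 1 and 23 without knockout-GFP 2. Leaving out a library removes the pair of its group by construction. Regions called in 3 libraries, 1 of them the library left out, then count as called in 2.

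The members shared by both control-GFP libraries with the highest score percentiles comprised 2 regions far from any coding gene, 1 at a tRNA gene and 2 inside genes. A score is the value the authors deposited for a peak, taken here to be −log10 of its q-value, and it ranks peaks only within a list. A score percentile is the rank of a peak in its own list, averaged here over the 2 libraries of a member. The region chr12:96124325-96124605, 339 kb from Flrt2, a gene for a cell adhesion protein of axon guidance, had scores of 14.7 and 6.30 in control-GFP 1 and 2 and a mean percentile of 89.2. The region at chr16:80272669-80272978 lay 928 kb from Ncam2, which encodes a neural cell adhesion molecule, with scores of 5.83 and 3.52. The other 3 of the top 5 included the start of the lncRNA gene Gm46404 beside the valine tRNA gene n-TVcac9 (5.83 and 3.26). The others were the member at the Mllt10 start shown above (4.33 and 3.94) and a region inside Itih5 (6.85 and 2.77). Itih5 encodes an inhibitor chain that binds hyaluronan. Scores in control-GFP 2 were below 7 for all 5, and no member of this pair reached a mean percentile of 90.

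Among the 43 members shared by both knockout-GFP libraries the median of the mean percentile was 42.3, beside 47.2 among the 12 of both control-GFP libraries. The region chr2:181918495-181918689, 27.9 kb from the predicted gene Gm40035, scored 33.7 and 33.9 in knockout-GFP 1 and 2, for a mean percentile of 97.1. The region chr6:47778122-47778268 lay 17.9 kb from Pdia4, which encodes a protein disulfide isomerase of the endoplasmic reticulum, with scores of 8.52 and 26.0. Next came chr4:3052972-3053118, 119 kb from the vomeronasal receptor gene Vmn1r2 (9.90 and 12.9), and regions inside Ptp4a2, which encodes a prenylated tyrosine phosphatase (10.5 and 10.7), and inside A530032D15Rik (9.95 and 9.85). Members on internal start windows of 12 coding genes were also shared by this pair. Among them were those at Wdr20, shown above (8.68 and 7.33), and at Adipor2, a receptor for adiponectin (10.6 and 4.79). Others were at Eprs, a glutamyl-prolyl tRNA synthetase (7.64 and 5.23), and at H3f3b, a gene for histone H3.3 (3.94 and 7.26). The start of Idh1, which encodes the cytosolic NADP-dependent isocitrate dehydrogenase, ranked low in both, with scores of 2.69 and 2.95. The region chr9:78175631-78176018, at a lncRNA start, reached the edge of Rn7sk, the 7SK RNA that holds the elongation factor P-TEFb inactive, with scores of 2.85 and 5.82.

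Only 2 members were shared by both knockout-Acsl4 libraries. The region chr3:21613996-21614173 lay 462 kb from Tbl1xr1, a subunit of the NCoR corepressor complex, with scores of 11.8 and 2.54. The region chr9:74184201-74184473 lay inside Wdr72, 74.0 kb from its nearer end, with scores of 4.97 and 2.66. Neither lay on a listed start.

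More of the members than of regions called in 1 library lay inside genes, and members lay nearer to gene ends. In the body of a protein-coding gene lay 244 of 365 members (66.8%, 61.8 to 71.7), against 42.6% (41.6 to 43.7) of distal regions called in 1 library and 50.7% (45.4 to 56.0) of those called in 3 or more. The median distance from the midpoint to the nearest gene end was 9.38 kb (95% interval 7.30 to 11.9), with quartiles of 2.61 and 31.3 kb. It was 46.2 kb (44.2 to 48.4) for regions called in 1 library and 15.1 kb (11.7 to 21.3) for those called in 3 or more. That pool was mixed, with medians of 7.39 kb (4.64 to 10.9) for 3 libraries, 11.7 kb for 4, 95.9 kb for 5 and 117 kb for 6. In the same order, 61.3% (54.0 to 68.2), 59.4%, 31.1% and 14.6% lay in gene bodies. Members were therefore not nearer to gene ends than regions called in 3 libraries. Within 10 kb of a gene end lay 186 members (51.0%), and over 100 kb away lay 37 (10.1%). These intervals treat regions as independent and cover counting error only. The sets draw on different libraries, since 5481 of the 8174 regions called in 1 library came from knockout-Acsl4 2, while control-GFP 1 and knockout-GFP 2 gave most members. Within a library the differences were smaller in some cases. In control-GFP 1 the median distance was 20.5 kb for its own distal regions and 7.56 kb for its members, and in knockout-GFP 2 it was 13.9 and 7.13 kb. In knockout-Acsl4 2 it was 52.1 and 18.5 kb, and in control-GFP 2 it was 57.3 and 28.3 kb. The share in gene bodies was 56.4% and 70.1% in control-GFP 1, and 58.8% and 70.8% in knockout-GFP 2.

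**Figure D2:**
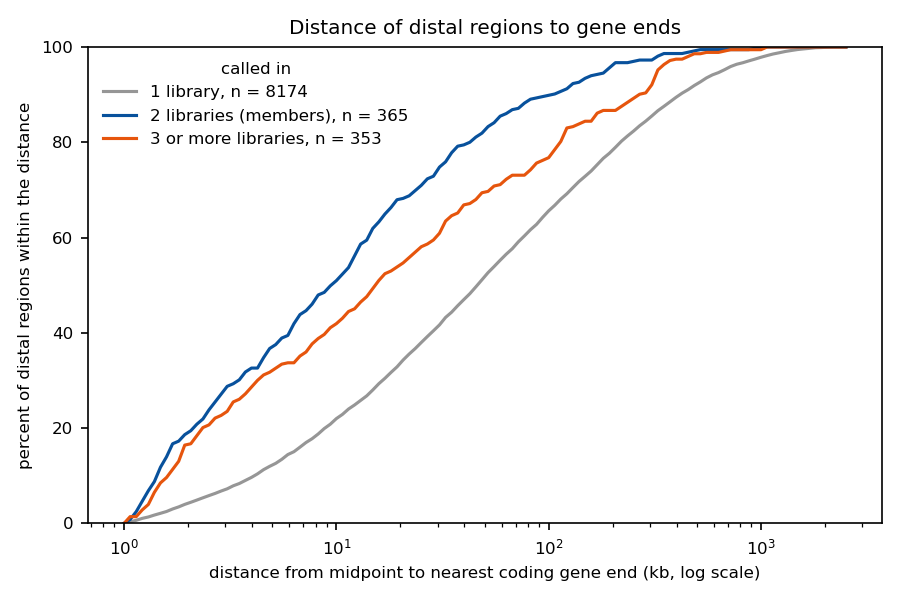
Cumulative percent of distal regions (vertical axis) within a given distance from midpoint to nearest protein-coding gene end (horizontal log axis, kb), for regions called in 1 library, 2 libraries and 3 or more. The medians are 46.2, 9.38 and 15.1 kb. The last set pools regions called in 3, 4, 5 and 6 libraries, whose own medians run from 7.39 to 117 kb.

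The longest distances belonged to members far from any coding gene. The region chr2:98663814-98663975 lay 1032 kb from Lrrc4c, a gene for a synaptic adhesion protein, and scored 12.2 in knockout-GFP 2 and 29.4 in knockout-Acsl4 1. The region near Ncam2 named above came next, and chr3:3001803-3001928 lay 506 kb from Hnf4g, which encodes a nuclear receptor, with scores of 21.2 in knockout-GFP 2 and 11.8 in knockout-Acsl4 1. At the threshold, the nearest members lay 1005 bp from Arhgap21, 1043 bp from Pdcl and 1048 bp from Syde2, and the nearest regions left out lay 999 bp from Jund, 993 bp from Ccne2 and 980.5 bp from Colgalt1. Member width had a median of 291 bp and ran from 104 to 703 bp. The widest members were the internal start of Yipf6 (703 bp), a region 18.1 kb from Tmem232 (678 bp) and the internal start of Rnf44, a RING finger gene (677 bp).

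The share of distal regions on a listed start differed with the number of libraries that called them. The share on a listed start was 3.11% (2.74 to 3.51) for regions called in 1 library, 36.9% for members, 47.3% (39.9 to 54.8) for 3 libraries, 31.8% (20.9 to 44.4) for 4 libraries, 2.50% for 5 libraries (1 of 40) and 0 of 47 for all 6. Of the 7919 assessed regions called in 1 library, 5306 came from knockout-Acsl4 2, where the share was 0.358%. The start itself lay inside the region for 106 of the 130 members on a window, and the median distance from start to midpoint was 82 bp. For the 117 coding starts, the median position was 4.13 kb downstream of the outermost start of the gene, with 65 within 5 kb and 19 over 20 kb. Starts of coding genes over 1000 bp from gene ends numbered 3881, and 114 of them (2.94%) had a member on their window. Members on a listed start lay in a gene body in 90% of cases and a median of 3.84 kb from a gene end. The 222 assessed members off listed starts lay in a gene body in 52.7% of cases and a median of 14.2 kb away.

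The pairs differed in this feature. Of the members shared by control-GFP 1 and knockout-GFP 2, 99 of 195 assessed (50.8%, 43.5 to 58.0) lay on a listed start. For both knockout-GFP libraries it was 14 of 41 (34.1%), and for control-GFP 1 with knockout-GFP 1 it was 9 of 41 (22.0%), or 25.7% without the 6 at Acsl4. None of the 15 members of control-GFP 2 with knockout-Acsl4 2 and none of the 13 of knockout-GFP 2 with knockout-Acsl4 1 did. Among the 3 pairs within control-GFP 1, knockout-GFP 1 and knockout-GFP 2 the share was 122 of 277 (44.0%, 38.1 to 50.1), against 8 of 75 (10.7%, 4.72 to 19.9) for all other pairs. The median distance to a gene end was 7.30 kb in the former and 25.8 kb in the latter. These 3 libraries were also those with the highest share of all their peaks on listed starts, from 60% to 67.2%, against 1.85% to 31.1% in the other 3, and the part of that difference in the members' positions was not tested.

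**Figure D3:**
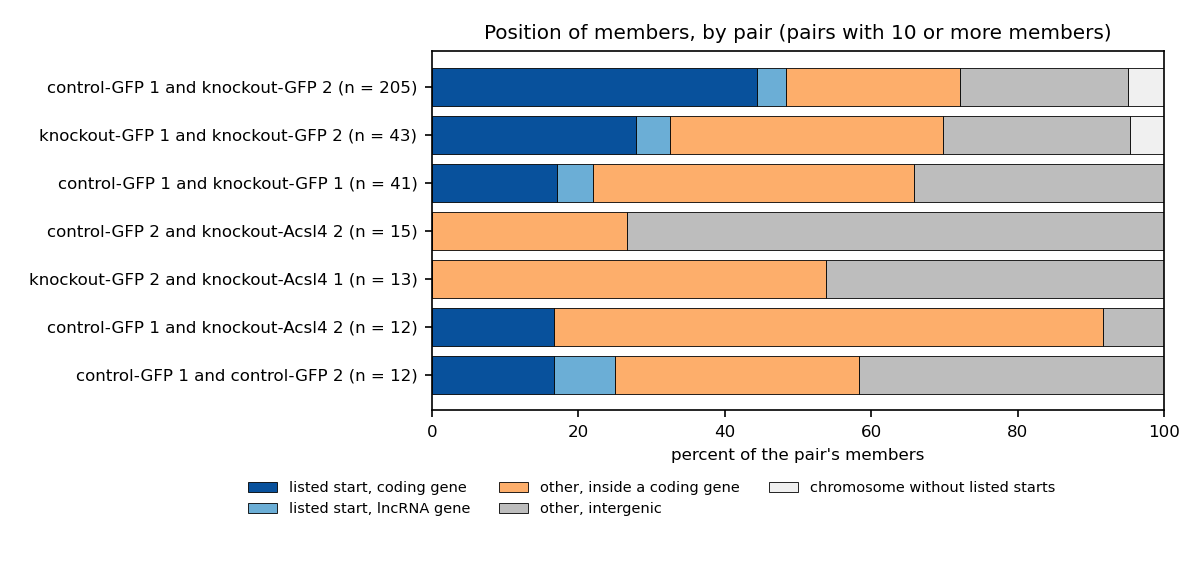
Position of members for the 7 pairs with 10 or more members: bars give the percent of the pair's members (horizontal axis) on a listed start of a coding or lncRNA gene, otherwise inside a coding gene, otherwise intergenic, or on the chromosome without listed starts. Control-GFP 2 with knockout-Acsl4 2 and knockout-GFP 2 with knockout-Acsl4 1 have no member on a listed start.

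Within a library the same order appeared between regions it shared with 1 other library and regions of its own. In control-GFP 1, 15.8% of its own distal regions and 42.8% of its members lay on a listed start, and in knockout-GFP 2 the shares were 22.2% and 45.7%. In knockout-GFP 1 they were 4.84% and 24.7%. In control-GFP 2 they were 0.471% and 12.1% (4 of 33 members, 95% interval 3.40 to 28.2). In knockout-Acsl4 2 they were 0.358% and 11.4% (4 of 35 members, 3.20 to 26.7). Knockout-Acsl4 1 was the exception, with 3.01% of its own distal regions and 0 of its 25 members, a count that allows up to 13.7% (exact 95% interval).

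Genes with a member on an internal start covered transcription control, signalling and metabolism. They lie outside the rule for named genes and were chosen after their values were seen. Among transcription factors, the Arntl start lay 29.0 kb downstream of its outermost start and scored 13.0 in control-GFP 1 and 8.87 in knockout-GFP 2. Tef scored 7.39 and 10.4 in the same libraries, Cipc 8.35 and 13.6, and Srf 7.55 and 6.73. Rbpj, the DNA-binding partner of Notch, had a start 34.6 kb downstream of its outermost start, with scores of 11.1 and 5.74, and Hsf2, a heat shock factor, had 12.6 and 5.99. Cic, a repressor released by receptor tyrosine kinase signalling, had 15.5 and 8.98. All 7 were called in control-GFP 1 and knockout-GFP 2, the pair that led the members as a whole.

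Tob1, an inhibitor of proliferation that recruits the deadenylase complex, had among the highest ranks of the internal starts, with scores of 27.2 in control-GFP 1 and 16.8 in knockout-GFP 2 and a mean percentile of 94.8. Pfkfb2 scored 18.3 and 10.99 in the same libraries, at a start 13.4 kb downstream of its outermost start. Stim1, the calcium sensor of the endoplasmic reticulum, scored 9.08 and 4.40, and Pdpk1 scored 3.99 and 7.45. Errfi1 was called in control-GFP 2 (4.13) and knockout-GFP 2 (6.27), and was the only assessed member of that pair on a listed start. Fis1, a gene of mitochondrial fission, and Ppp1r12c, a subunit of myosin phosphatase, were the 2 members of knockout-GFP 2 with knockout-Acsl4 2. Fis1 scored 3.9998 in knockout-GFP 2 and 1.49 in knockout-Acsl4 2, and Ppp1r12c scored 1.45 and 1.54. At Tob1, Stim1, Fis1 and Ppp1r12c the member touched the start window without holding the start itself. Polg, the mitochondrial DNA polymerase, was called in control-GFP 1 (6.42) and knockout-GFP 1 (4.54), with the arginine tRNA gene n-TRtcg5 beside it.

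The coding windows on members held more CpG and more GC boxes than coding windows in general, as did start windows on other distal regions. Their GC content had a median of 63.3% and they held a median of 24 CpG dinucleotides in 300 bp (n = 117). All 21263 coding windows had medians of 56.3% and 13, and the 3881 coding windows over 1000 bp from gene ends had 54.7% and 8. Start windows of both gene types on distal regions called in 1 library had 62.7% and 21 (n = 244), and those on regions called in 3 or more had 66.0% and 27 (n = 109), beside 63.3% and 23 for the 130 on members. GC boxes were present in 74.4% (65.5 to 82.0) of windows on members, in 38.5% of the windows over 1000 bp from gene ends and in 46.2% of all coding windows. They were present in 64.3% (58.0 to 70.4) of start windows on regions called in 1 library and 89.0% (81.6 to 94.2) of those on regions called in 3 or more, with the ETS core in 25% and 29.4%. CCAAT boxes were present in 51.3% (41.9 to 60.6), 34.7% and 38.2%, and the ETS core in 30.8% (22.6 to 39.97), 13.3% and 18.7%. For NRF1 the shares were 9.40% (4.79 to 16.2), 2.11% and 3.52%, and for YY1 they were 6.84% (2.998 to 13.03), 2.01% and 3.05%. Among start windows of both gene types, CCAAT boxes were present in 49.2% of the 130 on members. They were present in 43.9% of those on regions called in 1 library and 45.9% for 3 or more. In the same order, NRF1 shares were 8.46%, 3.28% and 8.26%, and YY1 shares were 6.15%, 4.10% and 4.59%.

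The intervals of YY1 and of the 5 other motifs on members held the share of all coding windows. E-boxes were found in 11.1% (6.05 to 18.3) of windows on members and 7.84% of all, CREB sites in 4.27% and 2.23%, forkhead sites in 4.27% and 3.01%, AP-1 sites in 4.27% and 6.99%, and CArG boxes in 3.42% and 1.52%. Forkhead motifs are those bound by FOXO factors, which AKT keeps out of the nucleus. A match says only that the letters are present. The members' higher GC content moves with the GC-rich motifs, and its part in their shares was not tested.

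**Figure D4:**
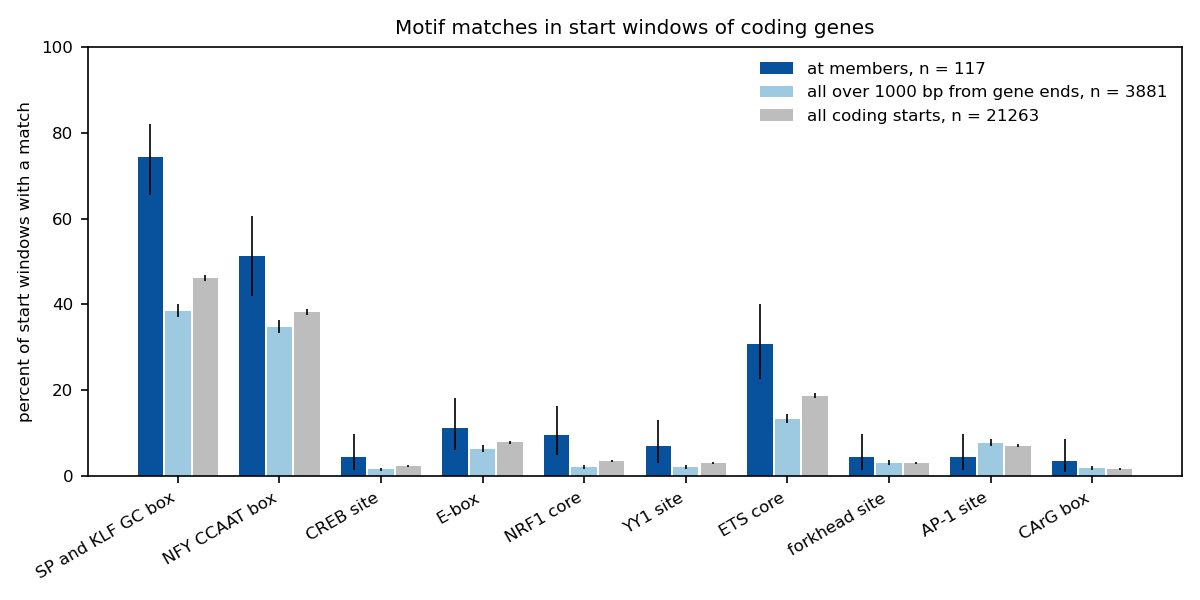
Percent of start windows of coding genes with at least 1 match to a motif (vertical axis) for 10 motifs (horizontal axis), in windows on members (n = 117), all windows over 1000 bp from gene ends (n = 3881) and all windows (n = 21263); bars are percents and lines exact 95% intervals. GC boxes stand at 74.4%, 38.5% and 46.2%.

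Some members lay at small and noncoding RNA genes, and several of these are among those on listed starts. Within 1000 bp of a tRNA gene lay 5 members (1.37%), beside 0.304% of all distal regions. Of these, 3 lay at tyrosine tRNA genes, with scores of 12.8 in control-GFP 1 and 3.29 in knockout-GFP 1 at n-TYgta2, of 5.79 in control-GFP 1 and 3.92 in knockout-GFP 2 at n-TYgta7, and of 5.07 and 3.50 in the latter pair at n-TYgta10. Within 1000 bp of a lncRNA gene lay 40 members (10.96%), beside 3.86% of all distal regions. Split by number of libraries, 261 of 8174 regions called in 1 library and 42 of 353 called in 3 or more lay there. Nearness to a lncRNA gene was therefore not particular to members. Several of the lncRNAs at members host small RNAs. The start of Mir22hg, the host of a microRNA, scored 5.15 in control-GFP 1 and 12.1 in knockout-GFP 2. Dancr and Snhg15, which host small nucleolar RNAs, scored 8.68 and 5.42, and 7.90 and 5.82, in those libraries. These genes were chosen after their values were seen.

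Members near islet genes were few. A protein-coding gene on 1 of 7 lists of 159 genes was nearest to 14 members (3.84%), beside 1.34% of all distal regions. Of those 14, 6 were the members inside Acsl4, and without them it was 8 members (2.19%) beside 1.27% of distal regions. None of the 14 lay on a listed start, and no list gene had a distal region called in 3 or more libraries. Beta cell identity genes gave 3 members (0.822%, beside 0.382% of all distal regions). The mTORC2, AKT and FOXO pathway also gave 3 (0.822% beside 0.315%). Fatty acid metabolism gave 6, all at Acsl4 (1.64% beside 0.180%). Other endocrine cells gave 1 (0.274% beside 0.135%), as did endothelial, stromal and immune cells (0.274% beside 0.180%). Acinar and ductal cells gave 0 (beside 0.112%), as did dedifferentiation and disallowed genes (beside 0.0337%).

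Of 31 matched beta cell identity genes, 3 had a member. The member inside Pax6, a transcription factor of endocrine cells, at chr2:105675349-105675631 lay 6.59 kb from a gene end and scored 4.58 in control-GFP 1 and 9.18 in knockout-GFP 2. The member inside Abcc8, which encodes the sulfonylurea receptor of the ATP-sensitive potassium channel, at chr7:46122816-46123195 lay 18.5 kb in and scored 3.41 in control-GFP 1 and 2.50 in knockout-Acsl4 2. Its 2 peaks overlapped by 16.0% of the shorter. The member 55.5 kb from Pcsk1, the prohormone convertase that processes proinsulin, at chr13:75033769-75034038 scored 4.45 in control-GFP 1 and 3.04 in knockout-GFP 1. All 3 were called in control-GFP 1, and the partner differed each time.

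In the pathway downstream of insulin, a member lay 1.21 kb from Foxo3, a forkhead factor inhibited by AKT, and scored 4.36 in control-GFP 1 and 4.54 in knockout-GFP 1. A member inside Irs1, an adaptor of the insulin receptor, scored 4.63 in control-GFP 1 and 4.37 in knockout-GFP 2, and a member 36.1 kb inside Rptor, the defining subunit of mTORC1, scored 3.11 and 2.87 in the same libraries. None of the 3 was called in a knockout-Acsl4 library, as was the case for 307 of all 365 members (84.1%). For other cell types, a member 1.37 kb from Etv1, an ETS factor, scored 5.60 in control-GFP 1 and 4.89 in knockout-GFP 2. A member inside Esam, an endothelial adhesion molecule, scored 7.05 in control-GFP 1 and 1.36 in knockout-Acsl4 2. All 8 members outside Acsl4 ranked below a mean percentile of 55 and had a peak in control-GFP 1. Of all members, 64.1% ranked below 55 and 75.1% had a peak in control-GFP 1.

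Genes nearest to 3 or more members were Acsl4 (6), Rcc1l (3) and Tmem267 (3). The 6 at Acsl4 lay between chrX:142320680 and chrX:142351606, with scores of 8.42 to 50.3 in control-GFP 1 and 12.4 to 91.2 in knockout-GFP 1, and no distal region near Acsl4 was called in another number of libraries. At Rcc1l, which acts in mitochondrial ribosome assembly, all 3 members were called in control-GFP 1 and knockout-Acsl4 2. The member at chr5:134176406-134176753, which touched a start window from its downstream side without holding the start itself, scored 26.2 and 29.0, the member at chr5:134163633-134163807 16.4 and 21.5, and the member at chr5:134155740-134155914 4.57 and 11.6. The latter 2 were both 175 bp wide. At Tmem267 the 3 members lay side by side and came from 3 pairs, with mean percentiles of 89.9 for control-GFP 1 with knockout-GFP 2, 76.9 for control-GFP 1 with knockout-Acsl4 2 and 35.5 for knockout-GFP 1 with knockout-GFP 2.

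In each library, members ranked between regions of its own and regions shared more widely. In control-GFP 1 the median score percentile was 21.3 for distal regions called there only, 49.5 for members and 79.3 for distal regions called in 3 or more libraries. In knockout-GFP 2 these were 21.7, 41.5 and 80.1, and in knockout-GFP 1 they were 15.9, 44.8 and 76.1. Control-GFP 2 had 42.9, 55.1 and 95.2. Member medians were 72.2 and 71.5 in knockout-Acsl4 1 and 2, beside 27.9 and 36.5 for regions called there only. These 2 lists held 525 and 5874 peaks, and the median member scores there were 8.97 and 2.50. A percentile ranks within a list and does not compare peak strength between libraries. The order was the same in all 6 libraries.

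**Figure D5:**
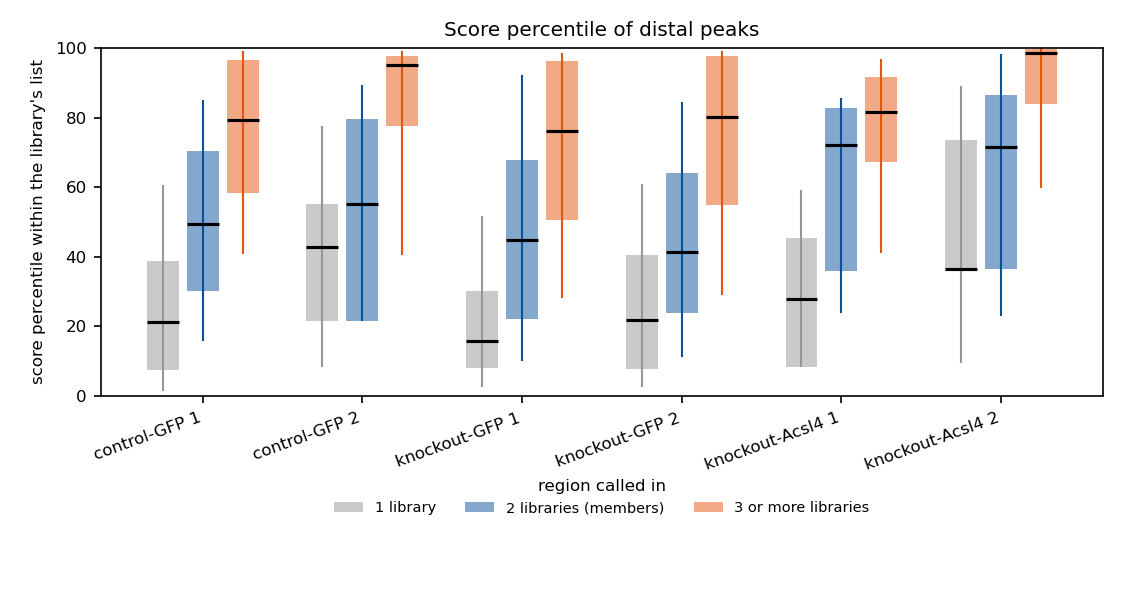
Score percentile of distal peaks within their own list (vertical axis) for each library (horizontal axis), split by the number of libraries that called the region; boxes span the quartiles, thin lines the 10th to 90th percentile and black lines the medians. Medians for members run from 41.5 to 72.2 and lie between those of the other 2 sets in every library.

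Of the 2 peaks of a member, the shorter was mostly covered by the longer. The overlap of the 2 peaks had a median of 98.5% of the shorter peak and reached at least 50% in 332 of 365 members. It does not say how much of the longer peak was covered. Ranks in the 2 libraries were only loosely related, with a Spearman rho of 0.28 across the 365 members and 0.23 across the 205 of control-GFP 1 and knockout-GFP 2, given as a description over regions of the same libraries. A mean percentile of at least 90 was reached by 21 members, or 16 without those at Acsl4, and 206 lay below 50.

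The highest mean percentile, 98.8, belonged to chrX:143483005-143483110, an intergenic region of 106 bp located 35.3 kb from Pak3, which encodes a kinase activated by Rac and Cdc42. It scored 684 in knockout-GFP 2 and 503 in knockout-Acsl4 1, with identical borders in both. Whether repeated sequence or read mapping plays a part in this or any other member was not tested. The other 9 of the top 10 were 3 members at Acsl4, 2 at Rcc1l, 2 near Gm40035 and 1 each near Postn and Pigk. The region chr3:54460824-54461072, 69.9 kb from Postn, a gene for a matrix protein of stromal cells, scored 10.4 in control-GFP 2 and 14.2 in knockout-Acsl4 2. The region chr3:152701655-152701809, 12.4 kb from Pigk, a subunit of the GPI transamidase, scored 20.6 in control-GFP 1 and 33.3 in knockout-GFP 2. The second region near Gm40035, chr2:181928197-181928579, scored 20.6 and 24.3 in those libraries.

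The 13 members of knockout-GFP 2 with knockout-Acsl4 1 ranked high, and their peaks were narrow for knockout-GFP 2 only. Median peak widths were 125 bp in knockout-GFP 2 and 116 bp in knockout-Acsl4 1. All members of these libraries had medians of 188 and 117 bp, and distal regions called there only had 143 and 107 bp. The mean percentile of the 13 had a median of 84.4, against 46.1 for all members. Members of knockout-Acsl4 1 as a whole had a median percentile of 72.2 in that list. Besides the member near Pak3, the 13 included chr16:91534592-91534695, 12.4 kb from the interferon gamma receptor gene Ifngr2 (89.7 and 30.6), and chr9:3022469-3022601, 313 kb from Alkbh8, a tRNA methyltransferase gene (47.4 and 44.0). Both were chosen after their values were seen. Across the 13 members the 2 libraries' percentiles had a Spearman rho of 0.81, a description over regions of the same 2 libraries.

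Some members neighboured regions called everywhere. Within 100 kb of a region called in all 6 libraries lay 12 members (3.29%, 1.71 to 5.67), beside 0.526% of distal regions called in 1 library and 6.81%, 8.70% and 20% of those called in 3, 4 and 5 libraries. They included 4 of the 13 members of knockout-GFP 2 with knockout-Acsl4 1 and 2 of the 4 of control-GFP 1 with knockout-Acsl4 1, and both members near Gm40035 and the farthest member, near Lrrc4c, were among the 12. None of the 12 lay on a listed start, and 2 lay in a gene body, both in Sfi1, a gene for a centriole protein.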

How the data were processed

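For every library the authors deposited 1 list of peaks, and its values were taken as −log10 q-values, because the smallest value of each list lies just above the −log10 of 0.05 and no header says otherwise. Per the submitters' processing notes, MACS2 2.1.1, BWA 0.7.10, SAMtools, Trimmomatic and FastQC were used, with no role stated. Those notes name human builds. The coordinates were treated as mouse GRCm38, since in each library peaks lay on RefSeq starts of that build more often than after a shift, and are given 1-based.

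Distances used 21887 protein-coding entries of the RefSeq gene table (GRCm38.p6), and starts used 32851 listed windows of 27025 genes. Exons and the sequence of whole members were not analysed here. Of 159 list genes, 158 matched.

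Named regions are the 10 with the highest mean score percentile, the top 5 of each same-group pair, those nearest to list genes, the 3 farthest, the 3 on each side of the threshold, the 3 widest and genes nearest to 3 or more members. Members and lists were chosen with earlier results of these data known. Other genes were chosen after their values were seen. Shares have exact Clopper-Pearson 95% intervals and medians order-statistic intervals. Group values were compared by exact permutation over libraries, and no test was made per region. Merging was tested on simulated regions. Alternatives changed the overlap, scores, list length, distance, chromosomes, gene types, starts and libraries. Python 3.11.15, pandas 2.3.3 and scipy 1.17.1 were used.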

Additional observations from a re-analysis of the deposited data

How the results depend on the processing

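The number of members depended on list length and score. With the better 50% of each list it was 182 (30 in same-group pairs, 44.4% on a listed start). With all lists cut to 525 peaks it was 65, with 10 in same-group pairs, 53.8% in gene bodies, a median distance of 17.2 kb and 29.5% on a listed start. Beyond 3000 bp from gene ends, 59.2% lay in gene bodies and 27.7% on a listed start, with a median distance of 16.5 kb, and beyond 500 bp the median was 5.27 kb. With all gene types the median was 6.10 kb. Counting listed starts as gene ends, an alternative chosen after seeing the data, left 222 members, 36 of them in same-group pairs, with 53.2% in gene bodies and by construction 0 on a listed start. Leaving out each library in turn gave 270 to 431 members, 16 to 189 in same-group pairs, 60.7% to 68.5% in gene bodies, medians of 7.39 to 10.1 kb and 35.4% to 45.3% on a listed start. The difference in members per library ranged from -86 to 188.5 for knockout-GFP minus control-GFP, from -343 to -153 for knockout-Acsl4 minus knockout-GFP and from -248 to 4 for knockout-Acsl4 minus control-GFP. For settings that do not by construction change the number of peaks, libraries or gene ends, the cause was not tested.

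With the replicate number as a block, the differences stayed 27, -151 and -124, with exact p-values over sign changes of 1, 0.5 and 1, where 0.5 is the smallest possible for 2 pairs. Only the number is shared, since the labels do not tie libraries of the same number together.

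Peak lists hold no reads, so a region without a peak was not shown to be closed, and depth could not be set equal between libraries.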
